A study of Mus musculus with 6 samples.

Results

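The genes described here are 44 genes of the bone morphogenetic protein (BMP) and transforming growth factor beta (TGF-beta) pathways, taken by gene symbol from the 24453 genes of each count table. They comprise 13 ligand genes, 9 receptor genes, 8 Smad genes, 6 antagonist genes, 4 genes of latent TGF-beta binding proteins and 4 Id genes. Reads were counted per gene in follicle cells that had been sorted by Sca1, alpha6-integrin and EpCAM from the back skin of mice at postnatal day 0. The mutant group held 3 libraries of the genotype Ring1a-/- Ring1b-/I53A and the control group 3 libraries that the labels call only Control. Ring1a and Ring1b are alternative catalytic subunits of Polycomb repressive complex 1, which ubiquitylates histone H2A, and I53A is a Ring1b substitution known to weaken that activity. The mutant joins loss of Ring1a and a null Ring1b allele with the I53A allele, and no group separates these. The labels name no Cre driver or other allele for either group, and they do not say whether the libraries of a group came from separate animals, so the p-values measure only the spread between these libraries, which may be technical.

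BMP and TGF-beta ligands are secreted dimers that bring type I and type II serine/threonine kinase receptors together. BMP receptors phosphorylate Smad1, Smad5 and Smad9, while TGF-beta and activin receptors phosphorylate Smad2 and Smad3. Each then enters the nucleus with Smad4, and the Id genes, which encode inhibitors of basic helix-loop-helix factors, are the classic BMP targets. In hair follicles, inhibition of BMP signalling is known to permit placode formation, BMP signalling is needed later for hair shaft differentiation and for stem cell quiescence, and Tgfb2 is known to promote follicle formation in the embryo.

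Totals were 15661124 to 17278824 counts in the mutant libraries and 14335156 to 18811587 in the control libraries. Levels are in CPM (counts scaled to the library size) on TMM-scaled library sizes, so that 1 CPM was 14.7 to 18.2 reads and a floor of 3 reads was 0.164 to 0.204 CPM; such floors cover counting error only. Ring1 was at 3.23, 7.10 and 4.88 CPM in mutants, against 16.8, 22.1 and 21.1 CPM in controls (log2 fold change -1.98, SE 0.33, edgeR adjusted p = 0.0113). Rnf2, which encodes Ring1b, was not called (67.1 ± 3.68 and 59.8 ± 6.93 CPM, adjusted p = 0.736). Xist and Y-linked genes gave 1 female and 2 male mutant libraries, and 2 female and 1 male control libraries. Libraries of the same number matched in sex for numbers 2 and 3, while mutant 1 was male and control 1 female. Follicle keratinocyte markers such as Krt5 and Sox9 were abundant, with a summed level of 15912 to 21178 CPM in mutants and 15340 to 17846 CPM in controls. Among them Lgr5, a stem cell gene, fell (83.7 ± 1.98 and 178 ± 37.7 CPM, edgeR adjusted p = 0.0125), where 0.404% of all tested genes fell. With the block 3 of the 18 rose and 3 fell, against 6.09% and 3.29% of all tested genes. Interfollicular markers summed to 2830 to 4564 CPM in mutants and 4299 to 5769 CPM in controls. Most of this came from the keratin genes Krt1 (2126 ± 510.0 and 3358 ± 764 CPM, edgeR adjusted p = 0.195, and 0.00154 with the block) and Krt10. Of the 9 tested, 7 were higher and 2, Krt1 and Krt10, were lower. Krtdap rose with the block (313 ± 60.1 and 203 ± 37.9 CPM, edgeR adjusted p = 0.145, and 0.00578 with the block). Smooth muscle and pericyte markers summed to 157 to 285 CPM in mutants and 126 to 199.9 CPM in controls, mostly from 1 gene, Cspg4 (199 ± 58.8 and 149 ± 35.0 CPM). Melanocyte markers summed to 28.0 to 63.4 and 27.7 to 50.6 CPM, endothelial markers to 15.0 to 35.2 and 11.4 to 17.6 CPM, and Merkel cell markers to 29.9 to 54.3 and 16.8 to 53.5 CPM. The Merkel sum came mostly from Piezo2 (25.8 ± 3.07 and 18.9 ± 8.77 CPM). Immune markers summed to 33.0 to 48.2 and 20.0 to 80.0 CPM, and among them H2-Ab1, an MHC class II gene, rose (20.4 ± 4.39 and 4.95 ± 2.93 CPM, edgeR adjusted p = 0.0476). Of the 6 immune markers tested, 2 were higher and 4 lower. The lower ones, none of them called, included H2-Aa (log2 fold change -1.22, edgeR adjusted p = 0.462) and Cd74 (-0.95, adjusted p = 0.408). The part of these cells in the results was not tested. Ly6a, which encodes the sort antigen Sca1, was at 1.00 to 1.49 CPM and 0.502 to 1.31 CPM, while the sorting protocol speaks of Sca1-positive interfollicular cells, so the gate used for these libraries is uncertain.

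Bmp4 and Tgfb2 rose in mutant follicle cells. Of 12 tested ligand genes 11 had a positive log2 fold change, against 49.7% of all tested genes, although most of the 11 were not called. Those of Bmp2, Bmp6 and Tgfb3 turned negative in at least 1 fit that left out a library (down to -0.086, -0.0047 and -0.096). Bmpr1a, Bmpr2, Acvr2a, Sostdc1, Fst, Id3 and Id4 fell when same-numbered libraries were compared within pairs, and were not called in the fit without pairs. Of the 43 genes tested, 2 rose and none fell at an adjusted p under 0.05 in edgeR's quasi-likelihood test, where 3.0% of all 14345 tested genes were called, 2.59% up and 0.404% down. At an unadjusted p under 0.05 there were 6 higher and 8 lower genes, 32.6% of the 43 against 14.9% of all tested genes. DESeq2 called 4 up (Bmp4, Tgfb2, Inhbb and Chrd) and 4 down (Bmpr2, Smad9, Sostdc1 and Id4), where it called 4.65% up and 1.48% down of the 15727 genes it gave an adjusted p. With the replicate number as a block 4 rose and 7 fell, together 25.6% of the 43 against 9.38% of all tested genes, of which 6.09% were up and 3.29% down. In the 3 ratios of same-numbered libraries, 16 genes were higher each time and 15 lower each time, 37.2% and 34.9% against 23.7% and 22.4% of all tested genes. The groups did not overlap for 15 of the 43, or 34.9%, against 21.2% of all tested genes. Mutants were above controls for 7 of them (16.3%, against 12.1% of all) and below for 8 (18.6%, against 9.15% of all). The median log2 fold change of the 43 was 0.09 and that of all tested genes -0.0033. By role, the median was 0.49 for ligands (0.27 to 0.83 when 1 library was left out) and -0.90 for Id genes (-1.23 to -0.61). It was -0.11 for Smads (-0.25 to -0.13) and 0.23 for latent TGF-beta binding proteins (0.13 to 0.34). For receptors (0.09, range -0.20 to 0.31) and antagonists (-0.30, range -0.54 to 0.06, and 0.10 with a stricter filter) the median changed sign over these alternatives. Bmp5, at 3 reads in the mutants and 2 in the controls, was too low to test.

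**Figure D1:**
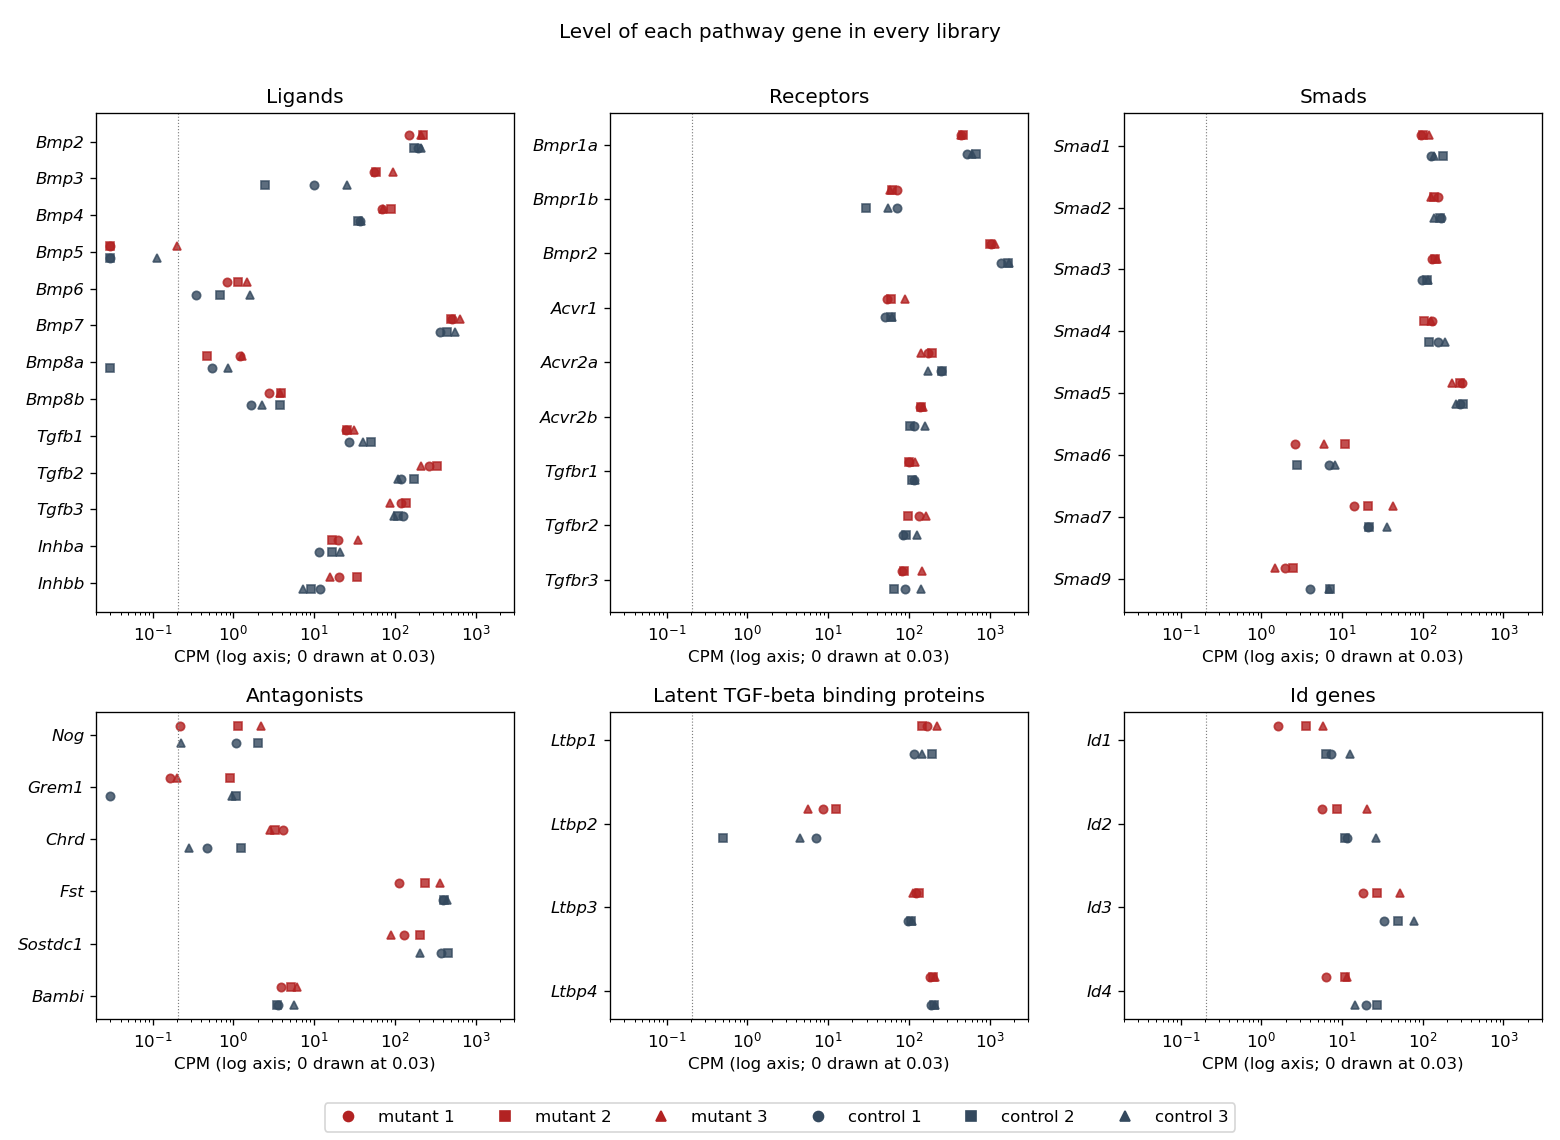
Level of each of the 44 genes in every library, in CPM on a log axis, with mutant libraries in red above control libraries in dark blue and 1 symbol per replicate number; the dotted line is the highest floor of 3 reads. Bmp3, Bmp4, Tgfb2 and Inhbb lie higher in all mutant libraries, while Bmpr1a, Bmpr2, Sostdc1, Fst, Id1 and Id4 lie lower.

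**Figure D2:**
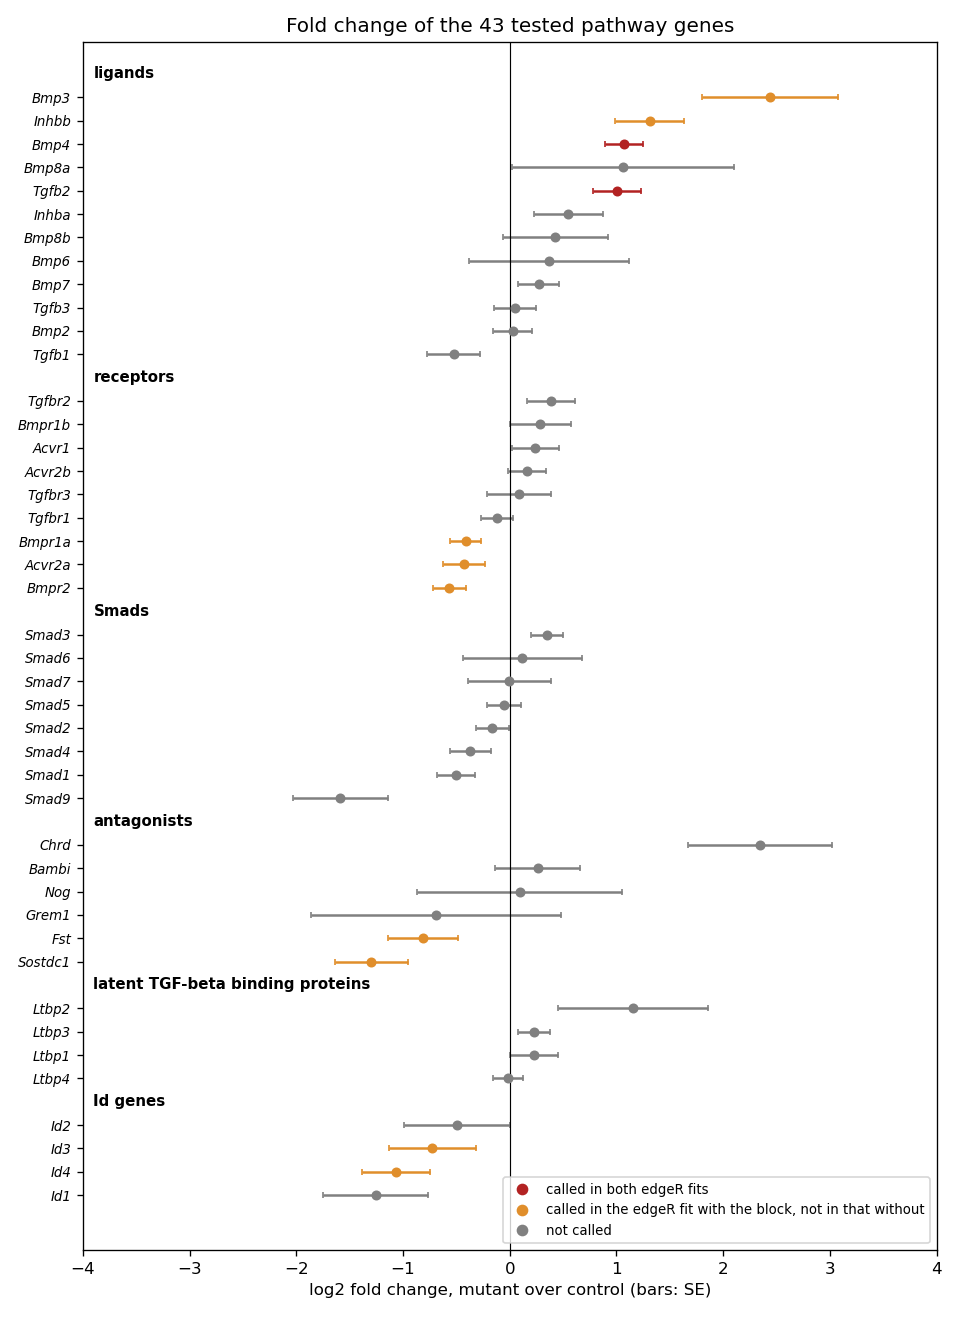
Log2 fold change of the 43 tested genes, mutant over control, with bars of 1 SE, grouped by role and coloured by call. Bmp4 and Tgfb2 passed in the edgeR fits without and with the replicate block, and 9 further genes passed in the edgeR fit with the block and not in that without it.

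Among ligands, Bmp4 (chromosome 14, 46383520 to 46390669, minus strand, GRCm38) rose. Bmp4 is a BMP ligand of epithelium and dermal papilla and was at 68.7, 89.1 and 70.9 CPM in mutants, against 36.6, 34.5 and 37.6 CPM in controls. Every mutant library stood above every control library, and the controls lay close together. Means were 76.3 ± 11.2 CPM in mutants and 36.2 ± 1.56 CPM in controls (SD, with n = 3 libraries in each group, here and throughout). The log2 fold change, mutant over control, was 1.07 (SE 0.18, edgeR adjusted p = 0.0115). The call was lost without mutant 2 (adjusted p = 0.0707) or control 1 (0.0641). Tgfb2 (chromosome 1, 186622792 to 186705989, minus strand) also rose, at 262, 334 and 212 CPM in mutants and 119.7, 172 and 111 CPM in controls. The groups did not overlap, with mutant 2 highest among mutants and control 2 highest among controls. The means were 269 ± 61.4 and 134 ± 33.3 CPM (log2 fold change 1.00, SE 0.22, edgeR adjusted p = 0.0430). Tgfb2 was not called without mutant 1 (0.12), mutant 2 (0.178), control 1 (0.173) or control 3 (0.0574).

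Both genes are also expressed in dermal cells. The summed level of 12 dermal fibroblast markers was 745 to 1071 CPM in mutants and 653 to 1153 CPM in controls, so the ranges overlapped. Of the 11 tested, 7 were higher and 1, Thy1, rose (39.5 ± 15.2 and 9.61 ± 0.572 CPM, edgeR adjusted p = 0.00761). Pdgfra, a defining fibroblast gene, was at 4.83 to 7.51 CPM in mutants and 2.66 to 7.04 CPM in controls. The summed level of 12 dermal papilla markers was 672 to 973 CPM and 751 to 936 CPM. Of the 10 tested, 7 were higher and 1, Prom1, rose (22.6 ± 2.28 and 3.93 ± 1.95 CPM, edgeR adjusted p = 0.00782), while Sox2 and Rspo3 were too low to test. The largest part of each sum came from 1 gene, Dcn for fibroblasts and Vcan for papilla. Over all tested genes edgeR called 2.59% up, and 49.7% had a positive log2 fold change. Among the 10 papilla markers 4 (Prom1, Trps1, Alpl and Crabp1) stood above controls without overlap, where 12.1% of all tested genes did. Below controls without overlap stood 1, Prdm1 (78.4 ± 3.04 and 92.3 ± 9.65 CPM), where 9.15% of all tested genes did. Trps1 rose with the block (192 ± 28.9 and 94.3 ± 45.9 CPM, edgeR adjusted p = 0.00656). Among fibroblast markers Col6a1 and Col6a2 rose with the block (edgeR adjusted p = 0.0167 and 0.0271). Their part in the ligand results was not tested, and in sorted bulk cells a change in the share of cells of a type cannot be told apart from a change in RNA per cell.

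The promoters of the 2 called ligand genes are shown for their base composition, since Polycomb complexes are known to bind CpG islands. RefSeq windows (GRCm38.p6) were matched for 31 of the 44 genes, with 39 windows, and are cut to the 250 bases before each start. The windows are chr14:46390670-46390919 for Bmp4 and chr1:186705990-186706239 for Tgfb2, both on the minus strand and written 5′ to 3′ with CpG dinucleotides in capitals.
Bmp4: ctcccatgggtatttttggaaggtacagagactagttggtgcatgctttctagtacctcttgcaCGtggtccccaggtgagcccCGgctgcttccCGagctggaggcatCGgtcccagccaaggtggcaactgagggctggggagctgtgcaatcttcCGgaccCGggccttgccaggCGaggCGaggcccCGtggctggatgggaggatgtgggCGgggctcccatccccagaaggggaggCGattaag
Tgfb2: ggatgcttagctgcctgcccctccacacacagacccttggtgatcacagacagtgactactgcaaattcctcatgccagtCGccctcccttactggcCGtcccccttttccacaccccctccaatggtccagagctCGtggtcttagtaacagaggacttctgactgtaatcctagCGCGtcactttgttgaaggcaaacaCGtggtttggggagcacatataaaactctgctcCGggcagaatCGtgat
The Bmp4 window held 11 CpG dinucleotides, an observed over expected ratio of 0.451, and the Tgfb2 window held 8, a ratio of 0.460. Both ratios were below the median of 0.727 over the 39 windows and above the median of 0.373 over all 32817 windows of the table.

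Bmp3 and Inhbb were not called in the edgeR fit without the block and rose in that with it. Bmp3, an atypical BMP known to oppose BMP signalling, was at 54.8, 57.7 and 95.4 CPM in mutants, against 9.95, 2.45 and 25.8 CPM in controls. All mutant libraries stood above all controls. Means were 69.3 ± 22.6 and 12.7 ± 11.9 CPM, a log2 fold change of 2.44 (SE 0.64, edgeR adjusted p = 0.0803, and 0.00364 with the block). It was also called with limma-voom (0.0285), a sex term (0.0232), library totals as the scaling (0.0484) and no filter on low counts (0.00766). The size varied with the controls. Without control 3, the highest, the log2 fold change was 3.50 (edgeR adjusted p = 0.00363). Without control 2, the lowest, it was 1.94 (adjusted p = 0.0723), and without any other library 2.13 to 2.58. Inhbb, the activin beta B chain, was at 20.4, 33.5 and 15.8 CPM in mutants and 11.7, 9.04 and 7.38 CPM in controls. All mutants were again above all controls (log2 fold change 1.31, SE 0.32, edgeR adjusted p = 0.0638, and 0.0163 with the block). Inhbb was also called with DESeq2 (0.00413), a sex term (0.0107) and no filter (0.0212).

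The most abundant ligand genes were not called. Bmp7 was at 510.1, 498 and 649 CPM in mutants and 362, 448 and 563 CPM in controls (log2 fold change 0.27, SE 0.19, edgeR adjusted p = 0.583). Bmp2, a ligand of the placode and hair matrix, was at 151, 225 and 210.2 CPM in mutants and 195, 172 and 209 CPM in controls (0.03, SE 0.18, adjusted p = 0.971). The groups overlapped for both. Tgfb1 was the 1 tested ligand gene with a negative log2 fold change (27.1 ± 3.86 and 39.0 ± 11.6 CPM, -0.52, adjusted p = 0.371). Tgfb3 averaged 114 and 111 CPM, and Inhba, the activin beta A chain, 24.0 and 16.4 CPM, without a call. Bmp6, Bmp8a and Bmp8b were low, at 0.984 to 3.47 CPM in mutants and 0.465 to 2.58 CPM in controls.

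Per kilobase of annotated exon (GENCODE M21), Bmp7 was the highest ligand gene, at 137 ± 20.8 CPM per kb in mutants and 114 ± 25.0 in controls. Bmp2 followed, at 55.0 ± 10.96 and 54.0 ± 5.29 CPM per kb. Tgfb2 came next in mutants at 46.5 ± 10.6 CPM per kb. In controls Tgfb2 was at 23.2 ± 5.75 CPM per kb, behind Tgfb3 at 32.7 ± 4.64. Bmp2 and Tgfb2 lay within their spread in mutants. Of the summed ligand level per kb, Bmp4 held 10.2% ± 1.10 in mutants and 6.35% ± 0.593 in controls, and Bmp7 held 41.4% ± 5.70 and 44.3% ± 5.47. Bmp4 thus took a larger share beyond the spread of the libraries, while the share of Bmp7 lay within it.

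Among receptor genes edgeR called none without the block. At an unadjusted p under 0.05 there were 2 of 9, against 14.9% of all tested genes. With the block 3 of 9 fell, against 3.29% of all tested genes. Bmpr2, the type II BMP receptor (chromosome 1, 59763400 to 59879014), was at 1057, 1022 and 1169.7 CPM in mutants, against 1385, 1678 and 1751 CPM in controls. No mutant library reached the lowest control. The log2 fold change was -0.57 (SE 0.15, edgeR adjusted p = 0.0899, and 0.00669 with the block), and it was also called by DESeq2 (0.0357). Bmpr1a, the type I BMP receptor needed for hair differentiation (chromosome 14, 34410734 to 34503341), was at 449, 463 and 448 CPM in mutants and 532, 676 and 603 CPM in controls. The mutant libraries differed little among themselves and all lay below the controls (log2 fold change -0.41, SE 0.14, edgeR adjusted p = 0.189, and 0.0283 with the block). Acvr2a, a type II receptor of activins and BMPs, was at 173, 195 and 141 CPM in mutants and 254, 259 and 173 CPM in controls. Its groups overlapped, although each mutant library was below the control of its number (-0.43, SE 0.20, edgeR adjusted p = 0.355, and 0.0341 with the block). Exons of Acvr2a overlap Orc4 on the other strand, which was at 42.7 to 49.6 CPM and 41.9 to 63.0 CPM. Whether the counting used strand is not stated in the labels. Bmp4, Tgfb2, Bmpr1a, Fst and Id4 also overlap predicted or noncoding genes on the other strand, so antisense reads cannot be told apart for them. Of these, Gm15217 beside Bmp4 was at 0.334 to 0.894 CPM in mutants and at most 0.227 CPM in controls.

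The other 6 receptor genes were not called in either edgeR fit or by DESeq2. The TGF-beta receptors Tgfbr1, Tgfbr2 and the co-receptor Tgfbr3 averaged 106, 132 and 104 CPM in mutants and 115, 101 and 98.2 CPM in controls. Acvr2b averaged 142 and 127 CPM, Acvr1 68.1 and 57.7 CPM, and Bmpr1b 64.0 and 52.5 CPM. Their log2 fold changes ran from -0.11 for Tgfbr1 to 0.39 for Tgfbr2. Per kb, Bmpr1a (71.4 ± 1.26 CPM per kb in mutants, 95.1 ± 11.3 in controls) and Bmpr2 (60.2 ± 4.29 and 89.2 ± 10.8) ranked first and second in both groups, and in controls they lay within their spread.

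No Smad gene passed in either edgeR fit. Smad1, a BMP-activated Smad, was at 93.8, 100.2 and 119 CPM in mutants and 128, 179 and 138 CPM in controls. The groups did not overlap (log2 fold change -0.51, SE 0.18, edgeR adjusted p = 0.204). Smad9, also activated by BMPs, had 36, 42 and 22 reads in mutants and 59, 112 and 121 reads in controls, or 1.98 ± 0.517 and 5.97 ± 1.69 CPM. All mutants were below all controls (-1.59, SE 0.44, edgeR adjusted p = 0.1), and DESeq2 called it (0.0151). Smad3, activated by TGF-beta and activin, was at 129.6, 141 and 150.0 CPM in mutants and 99.1, 113 and 117 CPM in controls, with all mutants above all controls (0.35, SE 0.15, edgeR adjusted p = 0.308).

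Smad5, the highest Smad per kb in mutants, was at 306, 289 and 231 CPM in mutants and 287, 311 and 257 CPM in controls (edgeR adjusted p = 0.929). Smad2 was at 154, 139 and 126 CPM in mutants and 167, 166 and 137 CPM in controls (edgeR adjusted p = 0.714). The groups overlapped for both. The common Smad4 averaged 119.6 ± 13.7 and 154 ± 33.8 CPM (-0.37, edgeR adjusted p = 0.421). The inhibitory Smad7 averaged 26.0 ± 15.2 and 26.1 ± 8.34 CPM, and the inhibitory Smad6 6.46 ± 4.07 and 5.94 ± 2.83 CPM, with wide spread within both groups.

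Reads of the 6 antagonist genes summed to 250.4 to 460.4 CPM in mutants and 653 to 868 CPM in controls, nearly all from Sostdc1 and Fst. Sostdc1 (also called ectodin or Wise), a secreted BMP and Wnt inhibitor of skin appendages (chromosome 12, 36314139 to 36318452), was at 129, 203 and 90.3 CPM in mutants. In controls it was at 376, 458 and 203 CPM. The groups just missed overlapping, because mutant 2 (203.2 CPM) and control 3 (203.3 CPM) were nearly equal. The log2 fold change was -1.30 (SE 0.34, edgeR adjusted p = 0.0805, and 0.000252 with the block). Each mutant library was below its numbered control, by log2 ratios of -1.54, -1.17 and -1.17, of which the first is the pair that differs in sex. With a sex term the log2 fold change was -0.96 (edgeR adjusted p = 0.0142). The number 3 library was the lowest of its group for Sostdc1, and also for the placode genes Shh (63.9, 90.2 and 27.7 CPM in mutants, 103.5, 151 and 48.0 CPM in controls) and Edar (72.4, 94.5 and 27.3, against 105, 119 and 44.5 CPM). Shh and Edar also fell with the block (Shh by 0.74 on the log2 scale, edgeR adjusted p = 0.0056, and Edar by 0.52, adjusted p = 0.0385). Neither was called without it (0.521 and 0.718). Foxi3, of the same marker list, was also lowest in library 3 of both groups. Its means were nearly equal (115.5 ± 47.7 and 116.1 ± 41.6 CPM, edgeR adjusted p = 0.995, and 0.951 with the block). The part of these genes in the Sostdc1 result was not tested.

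Fst, which encodes the activin and BMP antagonist follistatin (chromosome 13, 114452290 to 114458951), was at 113, 234 and 359 CPM in mutants, against 392, 403 and 443 CPM in controls. Controls were close together and mutants spread widely below them (log2 fold change -0.81, SE 0.33, edgeR adjusted p = 0.281, and 0.0331 with the block). Chrd, which encodes the BMP antagonist chordin, was higher at 76, 55 and 43 reads in mutants and 7, 20 and 5 reads in controls, or 3.44 ± 0.661 and 0.672 ± 0.514 CPM. The groups did not overlap (2.35, SE 0.68, edgeR adjusted p = 0.114), and DESeq2 called it (0.0138). Without control 2 the log2 fold change of Chrd was 3.17 (edgeR adjusted p = 0.0558). Exons of Chrd overlap Thpo on the other strand, which was at 4.33, 3.46 and 3.28 CPM in mutants and 1.36, 0.377 and 0.284 CPM in controls, and antisense reads cannot be told apart for these genes either. The pseudoreceptor gene Bambi averaged 5.06 ± 1.16 and 4.21 ± 1.18 CPM. Noggin (Nog, 1.19 ± 0.994 and 1.11 ± 0.891 CPM) and gremlin (Grem1, 0.420 ± 0.411 and 0.677 ± 0.589 CPM) were near the floor in some libraries, and a difference in them was not detectable at this depth.

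**Figure D3:**
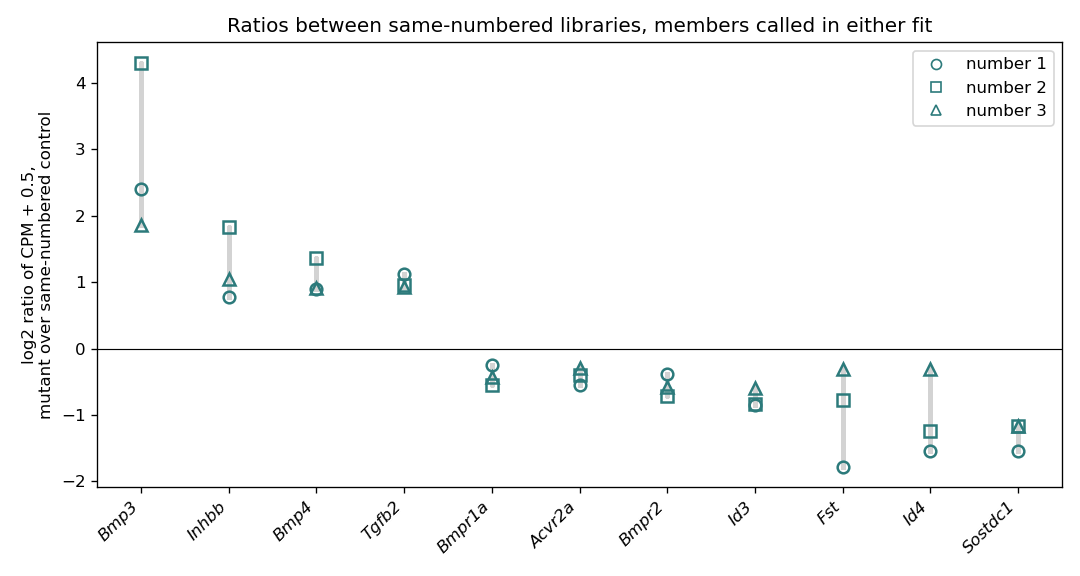
Log2 ratio of CPM + 0.5 between each mutant library and the control of the same number, for the 11 genes called without or with the replicate block; 1 symbol per number. All 3 ratios lie above 0 for Bmp3, Inhbb, Bmp4 and Tgfb2 and below 0 for the other 7 genes, which is what the block fit selects for.

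Latent TGF-beta binding proteins hold TGF-beta in the matrix, and none of the 4 was called in either edgeR fit or by DESeq2. Ltbp4 was at 182, 199.6 and 214 CPM in mutants and 186, 207 and 209.7 CPM in controls (log2 fold change -0.02, SE 0.14, edgeR adjusted p = 0.976). Ltbp1 was at 167, 146 and 222 CPM in mutants and 116, 196 and 145 CPM in controls (0.23, SE 0.22, edgeR adjusted p = 0.727). Both overlapped between groups. Ltbp3 averaged 123 ± 11.3 and 104 ± 5.60 CPM without overlap (0.23, edgeR adjusted p = 0.542), and Ltbp2 averaged 8.93 ± 3.40 and 4.03 ± 3.34 CPM.

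All 4 Id genes had negative log2 fold changes, as had 50.3% of all tested genes. That of Id2 turned positive in at least 1 fit that left out a library (up to 0.052). In edgeR none of the 4 was called without the block. With it 2 fell, where 3.29% of all tested genes fell, while DESeq2, without a block, called Id4. Id1 was at 1.59, 3.58 and 5.75 CPM in mutants, against 7.22, 6.34 and 12.4 CPM in controls. Every mutant was below every control (log2 fold change -1.26, SE 0.50, edgeR adjusted p = 0.264, and 0.0574 with the block). Id3, the highest of them per kb, was at 18.1, 27.3 and 52.1 CPM in mutants and 33.0, 49.0 and 78.7 CPM in controls. Its groups overlapped, but each mutant was below its numbered control (-0.72, SE 0.40, edgeR adjusted p = 0.468, and 0.0141 with the block). Id4, known for roles in neural and germline stem cells, was at 6.41, 11.03 and 11.6 CPM in mutants and 19.6, 26.7 and 14.5 CPM in controls. The groups did not overlap (-1.07, SE 0.32, edgeR adjusted p = 0.127, and 0.0448 with the block; DESeq2 0.0333). Id2 was at 5.65, 8.65 and 20.5 CPM in mutants and 11.6, 10.9 and 26.3 CPM in controls (-0.49, SE 0.50, edgeR adjusted p = 0.736), with overlap.

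Id1, Id2 and Id3 were highest in library 3 of both groups, as were most of 12 immediate early genes such as Fos, Atf3 and Zfp36. The summed level of the immediate early genes was 5401 to 10995 CPM in mutants and 7570 to 12923 CPM in controls, and 11 of 12 had a negative log2 fold change, against 50.3% of all tested genes. Of these, 1 fell without the block (Egr2, 139.8 ± 34.6 and 285 ± 65.8 CPM, log2 fold change -1.03, edgeR adjusted p = 0.0432). With the block 6 of 12 fell (Fosb, Jun, Egr1, Egr2, Egr3 and Atf3), where 3.29% of all tested genes fell. Immediate early genes respond to cell handling as well as to growth factors, and their part in the Id result was not tested.

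**Figure D4:**
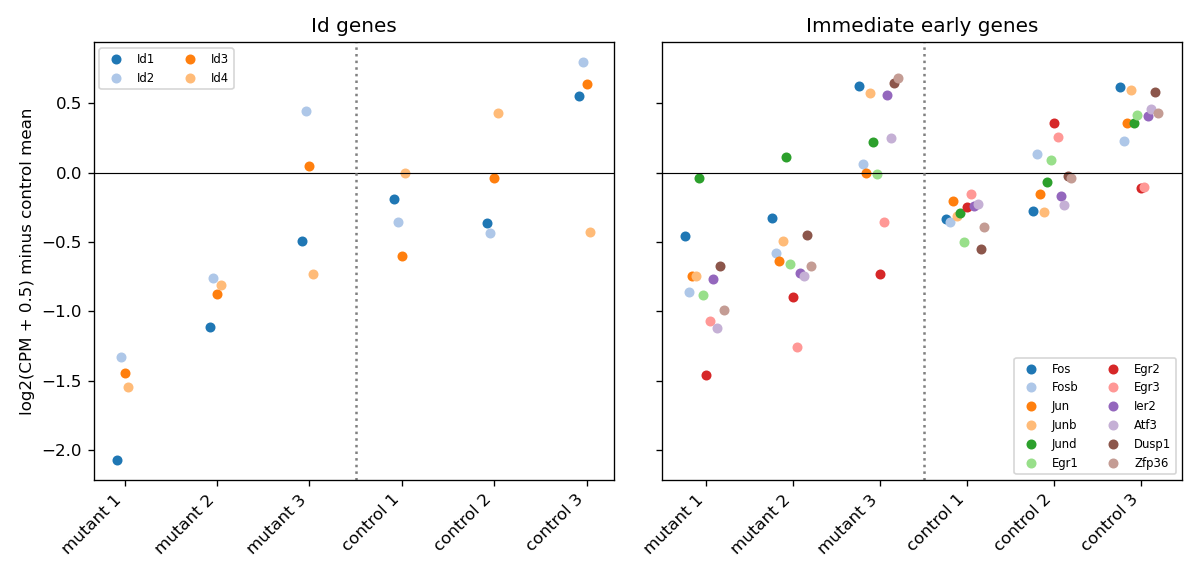
Level of the 4 Id genes and of 12 immediate early genes in every library, as log2(CPM + 0.5) minus the control mean of each gene; mutant libraries are left of the dotted line. Id1, Id2, Id3 and most immediate early genes stand highest in library 3 of each group, and Id4 does not in the controls.

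The promoter window of Id4 is shown for its CpG content and for GGCGCC, a GC-rich motif that BMP-activated Smads are known to bind. It is chr13:48260866-48261115 on the plus strand, with CpG dinucleotides in capitals.
Id4: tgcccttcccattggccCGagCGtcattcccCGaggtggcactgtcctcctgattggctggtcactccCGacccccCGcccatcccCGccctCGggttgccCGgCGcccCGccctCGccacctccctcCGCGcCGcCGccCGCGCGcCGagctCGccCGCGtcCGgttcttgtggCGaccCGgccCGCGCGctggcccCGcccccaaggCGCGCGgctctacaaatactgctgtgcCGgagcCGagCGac
The window held 35 CpG dinucleotides, a ratio of 1.05. GGCGCC, which reads the same on both strands, began at base 103. The Id2 window held it too, the Id3 window did not, and no window was matched for Id1. The motif stood in 11 of the 39 windows of the pathway genes (28.2%) and in 9.59% of all windows, with a median GC content of 64.4% and 52.4%. Some windows of a gene overlap, as for Ltbp4, whose overlapping windows both held the motif, so the windows are not independent. A match is a description of these letters and not a binding site. The Smad-binding sequence CAGACA or its reverse complement stood in 6 of the 39 windows (15.4%) and in 17.1% of all windows.

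Further genes of the pathway, from 7 lists, gave 93 tested of 125 genes. In edgeR without the block 5 rose and none fell, or 5.38% of the 93 against 3.0% of all tested genes. At an unadjusted p under 0.05 there were 13 higher and 5 lower genes, or 19.4% against 14.9%, and DESeq2 called 8 up and 1 down. With the replicate block 10 rose and 2 fell, or 12.9% against 9.38%, and the median log2 fold change was 0.04. Among intracellular modulators 1 of 27 rose, where 2.59% of all tested genes rose. That gene was Runx3, a Runt factor that cooperates with Smads. Runx3 was at 23.9, 30.5 and 28.0 CPM in mutants and 2.38, 1.44 and 2.50 CPM in controls, without overlap (log2 fold change 3.70, SE 0.30, edgeR adjusted p = 0.000411). With the block, Skil (156 ± 18.8 and 229.8 ± 9.16 CPM, adjusted p = 0.0131) and Nedd4l (138 ± 19.8 and 183 ± 32.8 CPM, adjusted p = 0.0392) fell. Skil encodes the Smad corepressor SnoN and Nedd4l a ubiquitin ligase of activated Smads.

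Among other extracellular antagonists and modulators 1 of 14 rose, where 2.59% of all tested genes rose. That gene was Kcp, which encodes a secreted chordin-like protein. Kcp was at 31.7, 26.4 and 16.7 CPM in mutants and 6.61, 5.58 and 4.31 CPM in controls (log2 fold change 2.18, SE 0.31, edgeR adjusted p = 0.00558). Fstl1, which encodes a follistatin-like protein, rose with the block (153 ± 13.9 and 107 ± 14.4 CPM, adjusted p = 0.0171). Of 12 genes listed under latent TGF-beta activation 2 rose, Fbn1 and Tgfb1i1, where 2.59% of all tested genes rose. Of these, Tgfb1i1 is not itself known as an activator. Fbn1, the fibrillin that anchors latent TGF-beta complexes, was at 91.1, 95.0 and 75.3 CPM in mutants and 22.0, 13.7 and 36.7 CPM in controls (1.85, SE 0.32, edgeR adjusted p = 0.0137). Tgfb1i1, a focal adhesion protein induced by TGF-beta, was at 48.9, 55.5 and 85.5 CPM in mutants and 20.2, 21.2 and 33.3 CPM in controls (1.34, SE 0.28, edgeR adjusted p = 0.0317). Without 1 library Fbn1 and Tgfb1i1 had adjusted p up to 0.0756 and 0.137, both without control 1. Fbn1 was also not called without mutant 1 (0.0515) or mutant 2 (0.0633), and Tgfb1i1 without mutant 2 (0.0804), mutant 3 (0.0856) or control 2 (0.121).

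Of 14 tested TGF-beta response genes none was called in edgeR without the block, and the median log2 fold change was 0.09. At an unadjusted p under 0.05 there was 1, against 14.9% of all tested genes. That gene, Itga5, an integrin subunit that binds fibronectin, rose with the block (131 ± 63.8 and 62.6 ± 19.1 CPM, adjusted p = 0.00260), and it was also called by DESeq2, without a filter and without control 3. Of 15 tested BMP response genes 1 rose, Dlx5, where 2.59% of all tested genes rose. With the block the epidermal factors Gata3 (293 ± 30.6 and 187 ± 37.7 CPM, adjusted p = 0.00653) and Tfap2c (123 ± 26.0 and 68.9 ± 19.2 CPM, adjusted p = 0.00255) rose too. At an unadjusted p under 0.05 there were 4 higher and 2 lower genes, against 14.9% of all tested genes. The lower ones were Dlx2 (log2 fold change -1.19, edgeR adjusted p = 0.248) and Atoh8 (-1.56, adjusted p = 0.284). Neither was called in either edgeR fit. Dlx5 averaged 18.5 ± 9.67 and 4.53 ± 1.61 CPM (2.03, SE 0.42, edgeR adjusted p = 0.0327). It was not called without mutant 2 (0.0793), mutant 3 (0.0942), control 1 (0.131) or control 2 (0.113), or with limma-voom (0.0665). None of 7 tested other receptors and co-receptors was called in either edgeR fit, and none had an unadjusted p under 0.05. The 5 tested genes listed as other ligands include Bmp1, which encodes a protease and not a ligand. Among the 5, Inha, the inhibin alpha chain, rose with the block (39.7 ± 15.2 and 21.8 ± 5.88 CPM, adjusted p = 0.0297).

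**Figure D5:**
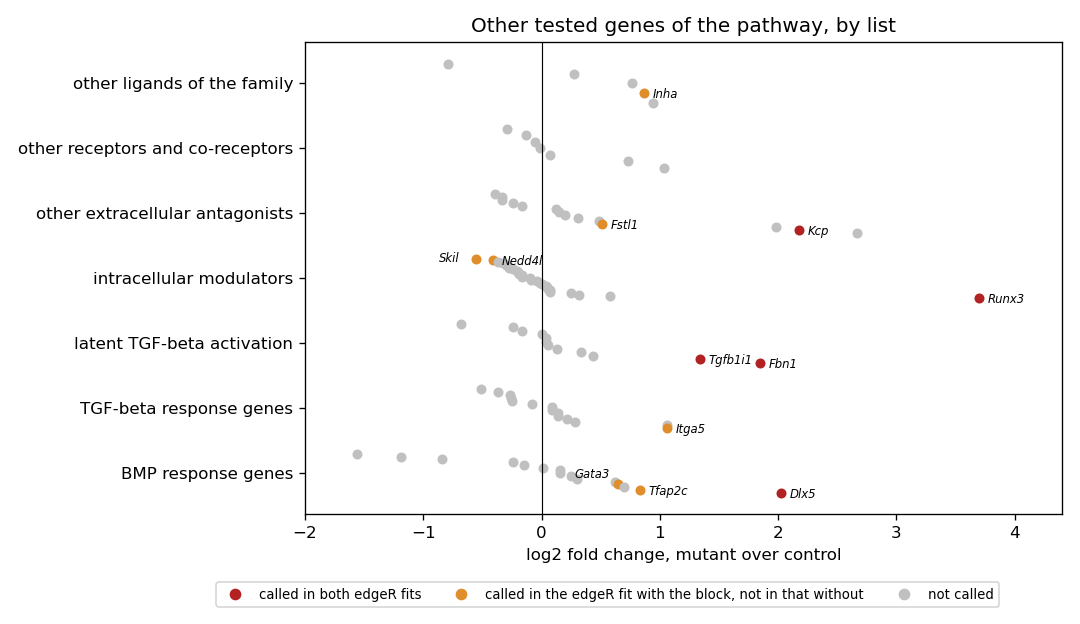
Log2 fold change, mutant over control, of further tested pathway genes by list, 1 point per gene, coloured by call. Runx3, Kcp, Dlx5, Fbn1 and Tgfb1i1 passed in the edgeR fits without and with the replicate block, and none of the other receptors passed in either.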

How the data were processed

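Each library came with its own deposited table of raw read counts by gene symbol, whole numbers throughout. Per the submitters' processing notes the genome was mm10, and the tools named, without a role, were DESeq2 1.6.3, HTSeq 0.6.1, Cufflinks 2.2.1 and TopHat2 2.0.13. Neither the annotation nor the strand setting is stated. The test on counts was edgeR 4.0.16's quasi-likelihood F-test (R 4.3.3; TMM factors, filterByExpr, group as the only term, Benjamini-Hochberg adjustment over 14345 genes, two-sided, with calls at adjusted p under 0.05). SE came from the F statistic. Alternatives were other normalizations and filters, DESeq2 1.42.0, limma-voom 3.58.1, a sex term, a replicate block and leaving out each library. Per-kb levels use GENCODE M21 exons (GRCm38). Promoter windows that hold an annotated UTR are not shown. The steps were tested on simulated data.

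The members, lists and named-gene rule (genes called with or without the block or at an unadjusted p under 0.05, plus the 2 most abundant of each role) were chosen with earlier results of these data known. Both groups carry replicate numbers 1 to 3. Across genes, a mutant library's deviation from its group mean correlated with that of the control of its number at 0.214 to 0.422. This was over the minimum of 0.1, so the number was used as the block of an alternative fit. The labels do not say what a number marks. The pair of mutant 2 and control 1 also passed that minimum, at 0.117, so the minimum alone does not single out the numbered pairs. No pair of libraries agreed within sampling noise (chi-square per degree of freedom at least 25.1).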

Additional observations from a re-analysis of the deposited data

How the results depend on the processing

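No call of a named gene turned its direction in the alternatives run. Over all genes, 372 rose and 58 fell. These counts were 732 and 232 with DESeq2, 873 and 472 with the replicate block, 109 down without a filter and 96 down with the sex term. Without 1 library they ran from 143 to 554 up and from 19 to 110 down.

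Of the pathway genes 2 rose and 0 fell. The counts were 4 up and 1 down without a filter, 4 and 4 with DESeq2, 4 and 7 with the replicate block and 4 and 2 with the sex term. Without 1 library they ran from 0 to 3 up and from 0 to 1 down. Of the further pathway genes 5 rose and 0 fell, against 8 and 1 with DESeq2 and 10 and 2 with the block, and without 1 library 2 to 8 rose. The cause of these shifts was not tested.

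Bmp4 and Tgfb2 passed under all 9 alternatives that kept every library. Among the pathway genes of all lists, the block changed no call beyond those given beside the results. Depth limits Bmp5, Nog, Grem1 and Bmp8a, which were near the floor.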
